A study of Homo sapiens with 32 samples.

Results

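New transcription at 165 minutes of release from a mitotic block was compared with that of an asynchronous culture in HUH7, an established human hepatoma line. The comparison used 1 column of each group and covered 17152 of 24242 genes, those with at least 10 FPKM (fragments per kilobase, scaled to the mapped total, a level per length) in either column, and 6 of the 32 samples. Released cells had been held in 2 mM thymidine for 24 hours, freed for 2 hours, kept in nocodazole at 0.06 ug/mL for 16 hours, collected by shake-off and replated. Asynchronous cells had no block. Both groups received 0.5 mM 5-ethynyl uridine (EU), a uridine analogue that marks RNA made during the pulse, for 40 minutes. The labels do not say whether 165 minutes marks the start or the end of the pulse.

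Each group had 3 libraries, and the authors deposited 1 pooled value per group and transcript. No replicate error, test or p-value stands behind any difference below, and "higher" and "lower" describe 1 value set against another. The labels give the time of release and name no phase. The block, the shake-off and the replating differed between the groups together with the phase of the cycle, and their effects cannot be told apart. In such bulk RNA, fewer cells making a transcript and less of it made per cell cannot be told apart either. FPKM are shares of each column's reads, so the values say nothing of total RNA output per cell.

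As background, a cell that leaves mitosis enters G1, where replication origins are licensed and no DNA is made. Genes for DNA synthesis are switched on near the end of G1 by E2F factors once cyclin-dependent kinases inactivate the retinoblastoma proteins, replication-dependent histone genes are transcribed in S phase, and most genes for chromosome segregation are transcribed in G2. An asynchronous culture mixes cells of all these phases. Hepatoma cells also transcribe liver genes, driven by factors such as HNF4A, FOXA and CEBP proteins.

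Of the 17152 genes, 2205 (12.9%) were at least 2-fold higher at 165 minutes and 1921 (11.2%) at least 2-fold lower, on the scale of log2(FPKM + 1), on which all folds below are given. These percentages are the background against which the counts below are read. The other 13026 genes (75.9%) lay within 2-fold. At least 4-fold differences were found in 553 genes upward and 540 downward. The median difference was 0.14 over these genes and 0.10 over all genes of the table. Relative to the all-gene median, 1847 genes (10.8%) were higher and 2213 (12.9%) lower, and after dividing each column by its sum 1637 were higher and 2418 lower, so which direction held more genes depended on the scaling. Across genes, which are not independent replicates, Pearson's r between the columns was 0.85 on the log2 scale.

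**Figure D1:**
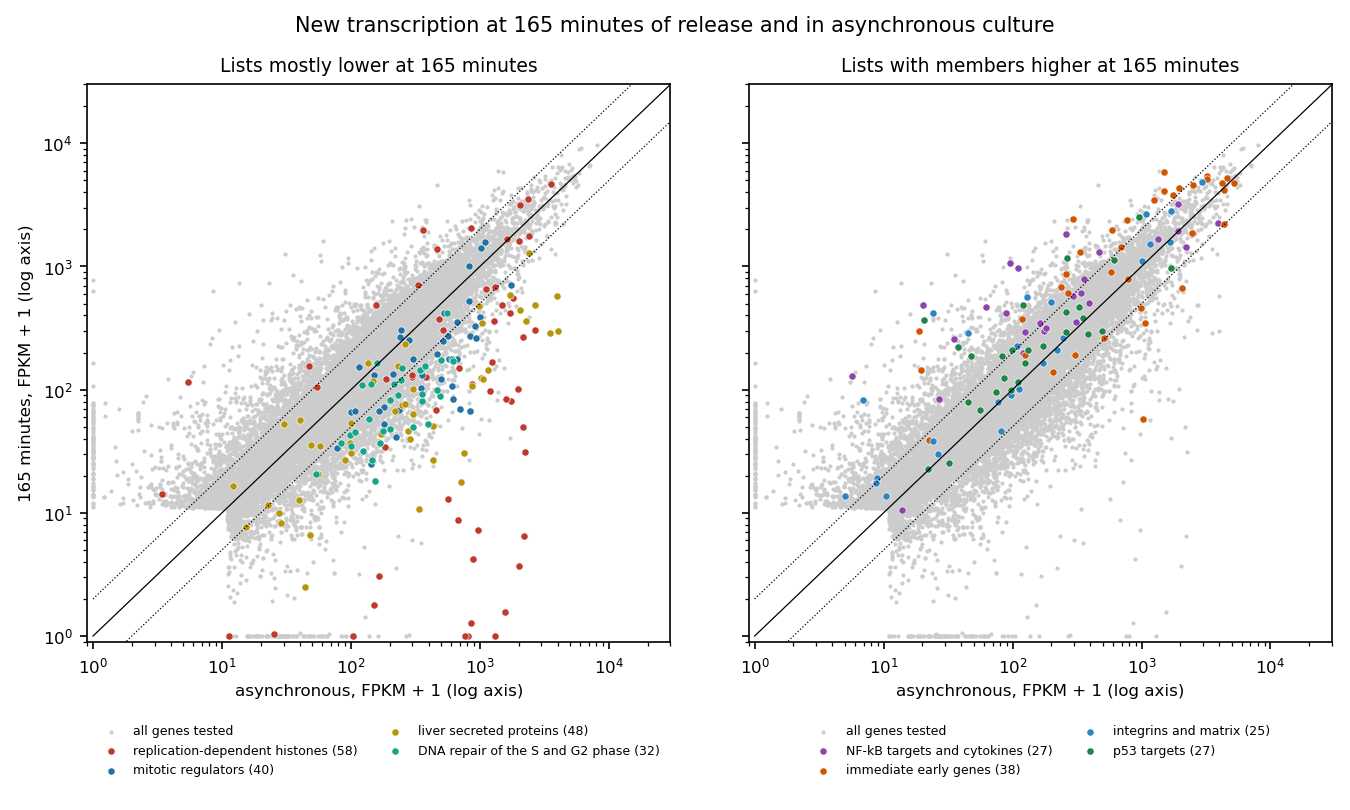
Level of each gene at 165 minutes (vertical) against the asynchronous culture (horizontal), both as FPKM + 1 on log axes, with the solid line at equal levels and dotted lines at 2-fold. Grey points are the 17152 genes compared and coloured points are members of 8 gene lists, with the histone, mitotic, repair and liver secreted lists mostly under the lower dotted line.

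Among the largest differences were those of replication-dependent histone genes, whose products package newly copied DNA. Of 61 listed genes, 60 were in the table and 58 were compared: 36 were at least 2-fold lower at 165 minutes and 9 higher, with a median difference of -2.12 on the log2 scale. The median level of the 58 was 117 FPKM at 165 minutes and 862 FPKM in asynchronous culture. All 5 families held lower members, with 11 of 14 H2A genes, 9 of 14 H2B genes, 7 of 13 H3 genes, 5 of 12 H4 genes and 4 of 5 linker histone H1 genes lower. The H2A genes had the lowest median, -3.79, and the H4 genes the highest, -0.76. The median of the whole list was -1.20 when only genes with 10 FPKM in both columns were kept, a filter that removes 15 genes low at 165 minutes and 3 low in asynchronous culture.

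Single genes ranged widely. H1-5, a linker histone gene, stood at 5.46 FPKM at 165 minutes and 2212 FPKM in asynchronous culture, 342-fold lower. It was between 0.0683 and 5.46 FPKM at all 6 release times. H1-1 stood at 30.0 against 2232 FPKM, although it had reached 1239 FPKM at 80 minutes. The H2A gene H2AC16 stood at 48.5 against 2164 FPKM and the H3 gene H3C2 at 100.4 against 1969 FPKM. H2BC17, H2AC20 and H3C3 were listed at 0 at 165 minutes and at 1302, 803 and 762 FPKM in asynchronous culture, and for these no fold is given. Thus the lowest members were near or at the bottom of the scale while the same genes were among the highly transcribed ones of the mixed culture.

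A smaller set of histone genes went the other way. H2BC21 stood at 1981 against 359.6 FPKM, H4C4 at 2046 against 855 FPKM, H2BC5 at 1392 against 466 FPKM, and H1-3 at 706 against 331 FPKM. H3C14 and H3C15, near-identical copies, had the same values in every column, 114 against 4.49 FPKM. H4C14 and H4C15 also shared their values, 657 against 1109 FPKM. Counting each distinct set of values once left 56 genes, 36 of them lower and 8 higher. How reads shared by near-identical histone copies were assigned is not stated in the labels, which leaves the split between copies uncertain.

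The promoters of 2 linker histone genes are shown, since the H1 box (AAACACA), a motif of H1 promoters, was found in all 5 H1 genes and in none of the other 48 matched histone promoters. It was searched on both strands of the 250 bases before the annotated start and occurred in 2.92% of the 11175 promoters of compared protein-coding genes. H1-5 (chr6:27867589-27867838) was lower and H1-3 (chr6:26234988-26235237) higher, and both hold the box at a like distance, with its last match starting 117 and 119 bases before the start. Sequences here and below are from RefSeq on the assembly GRCh38.p14, in the orientation of the gene (minus strand for both), with capitals marking the motif.
H1-5: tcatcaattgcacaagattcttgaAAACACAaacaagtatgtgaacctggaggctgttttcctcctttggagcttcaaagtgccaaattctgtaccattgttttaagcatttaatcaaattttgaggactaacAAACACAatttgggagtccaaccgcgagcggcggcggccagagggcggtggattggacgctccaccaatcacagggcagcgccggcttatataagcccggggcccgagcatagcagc
H1-3: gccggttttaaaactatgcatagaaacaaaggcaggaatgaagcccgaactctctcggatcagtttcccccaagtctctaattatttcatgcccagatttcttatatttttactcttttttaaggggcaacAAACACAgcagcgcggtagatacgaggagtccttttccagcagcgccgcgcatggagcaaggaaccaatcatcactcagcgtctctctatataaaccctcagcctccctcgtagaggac

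**Figure D2:**
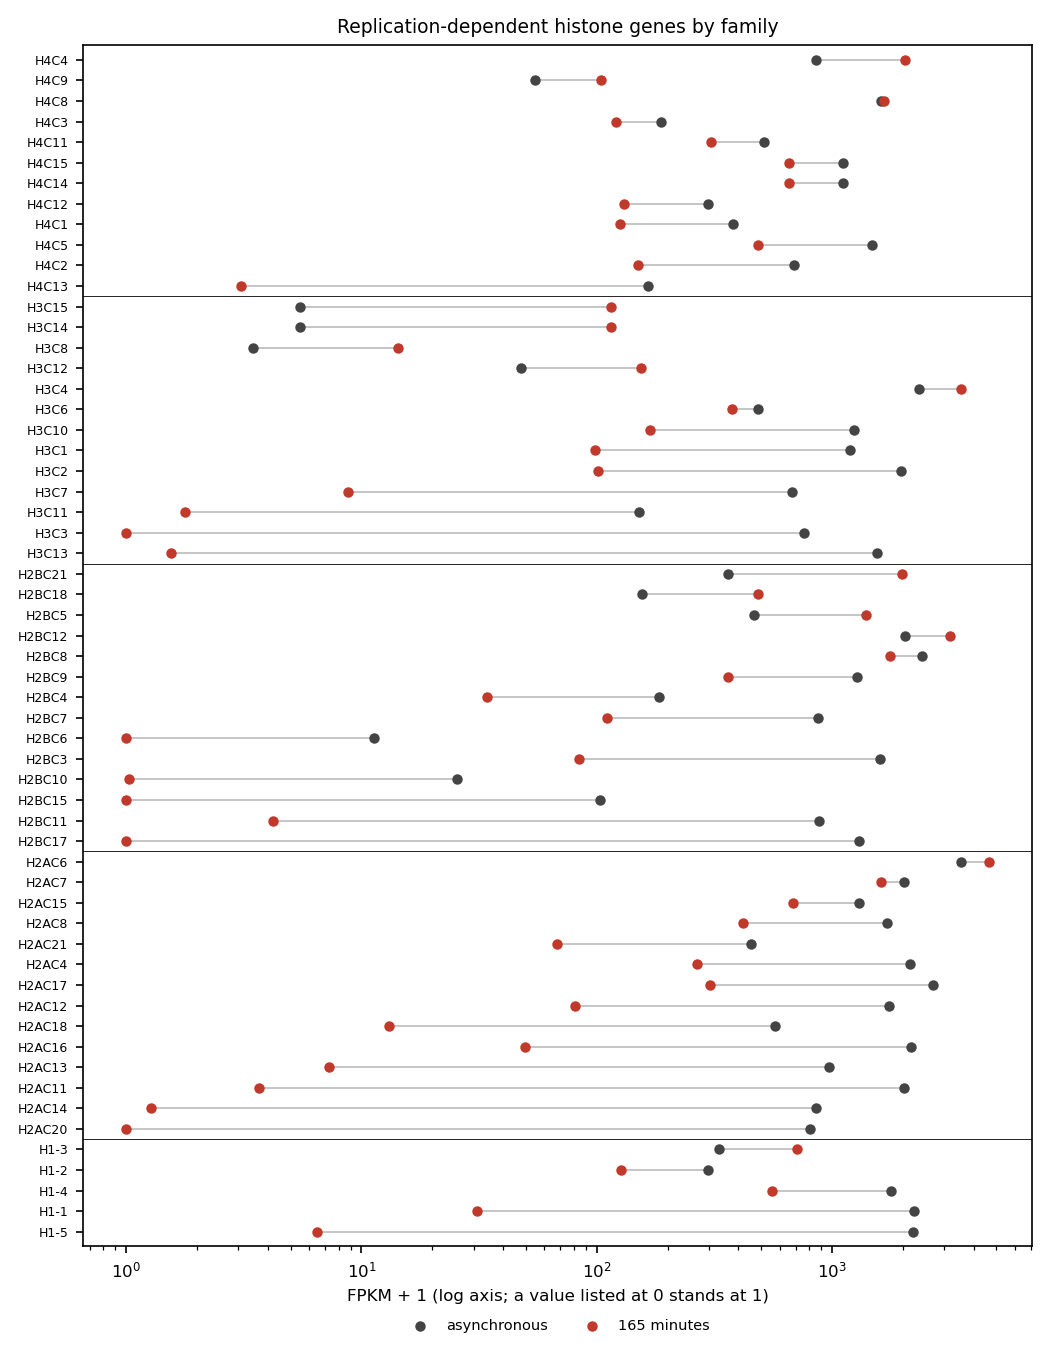
FPKM + 1 (log axis) of the 58 replication-dependent histone genes at 165 minutes (red) and in asynchronous culture (dark), 1 gene a row, with lines between the families H1, H2A, H2B, H3 and H4. Red points lie left of the dark ones in most rows, and 5 red points stand at 1 because the gene is listed at 0.

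Histone genes are short, and low values of a short gene rest on few reads. Low values in the table repeat in steps, and the step at 165 minutes was 1.07 times that of the asynchronous column by the most frequent ratio, held by 118 of 1465 low values. If a step is 1 read, this ratio gives the column at 165 minutes a depth of 0.936 times that of the asynchronous one. For a feature of 0.5 kb at 10 FPKM this came to 2.15 steps at 165 minutes, a counting error of 68.2% on the same assumption, and for 100 FPKM to 21.6%. At 10 kb and 10 FPKM it was 15.3%. These figures cover counting error only.

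Of 11 histone variant genes, which are transcribed outside S phase too, 8 lay within 2-fold (median -0.19). H2AX, the variant phosphorylated at DNA breaks, was lower at 149 against 1544 FPKM, and CENPA, the centromeric H3, was lower at 39.3 against 110.4 FPKM. H2AJ was higher at 444 against 77 FPKM. Of 11 factors that make or process histone mRNA, 8 lay within 2-fold. On both lists the share past 2-fold, 27.3%, was near the 24.1% over all genes compared. HINFP, an activator of H4 genes (349.9 against 126 FPKM), and SYMPK, a scaffold of the cleavage machinery (579 against 241 FPKM), were higher, and CASP8AP2 was lower (144 against 336 FPKM).

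Genes of DNA replication were lower at 165 minutes or within 2-fold, and none of the 75 on 3 lists was at least 2-fold higher. Of the 18 origin licensing genes, which load the MCM helicase onto DNA, 7 were lower (median -0.69). MCM10 stood at 54.3 against 303 FPKM, MCM6 at 53.6 against 259, CDT1 at 63.7 against 269.6, MCM2 at 123 against 456, CDC6 at 173 against 616, MCM5 at 84.5 against 237 and MCM8 at 357 against 761 FPKM. The subunits of the same helicase thus differed, since MCM3 (908 against 929.9 FPKM), MCM4 (418 against 495 FPKM) and MCM7 (874 against 932 FPKM) had nearly the level of the mixed culture. The origin recognition genes ORC1 to ORC6 all lay within 2-fold, from -0.69 for ORC6 and -0.68 for ORC1 to 0.10 for ORC5 on the log2 scale. GMNN, the licensing inhibitor geminin, stood at 942 against 839 FPKM.

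Of 36 genes of the DNA synthesis machinery, 20 were lower (median -1.06). PCNA, the sliding clamp of DNA polymerases, stood at 297 against 1184 FPKM. ASF1B, a histone chaperone of the replication fork, stood at 37.6 against 381 FPKM, 9.88-fold lower, and UHRF1, which brings DNA methyltransferase to new DNA, at 37.9 against 249 FPKM. Of 21 genes of nucleotide supply, 12 were lower (median -1.30). RRM2, the regulated subunit of ribonucleotide reductase, stood at 174 against 1402 FPKM. TK1 (thymidine kinase) stood at 34.3 against 360.0 FPKM and TYMS (thymidylate synthase) at 71.7 against 441 FPKM. The thymidine block acts on this pathway, and its part in these values cannot be told apart from that of the phase.

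The E2F and retinoblastoma family, which switches these genes, was mostly lower or level. Of 18 members, 9 were lower and 1 higher (median -0.94). The repressors E2F8 (47.8 against 721 FPKM) and E2F7 (22.2 against 294 FPKM) were the lowest, at 14.8-fold and 12.7-fold under the mixed culture. The activators E2F1 (154 against 879 FPKM) and E2F2 (15.8 against 94.3 FPKM) were also lower, while the third activator, E2F3, was within 2-fold (322 against 476 FPKM). MYBL2, TFDP1, RBL1, LIN52 and E2F5 made up the rest of the lower members, with differences from -2.48 for MYBL2 to -1.04 for E2F5. E2F4 and RB1, which act in resting and G1 cells, stood at 374 against 229 and 108 against 134 FPKM, within 2-fold. LIN37, a subunit of the repressor complex DREAM, was higher at 390.2 against 90.5 FPKM.

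E2F sites were searched as TTTGGCGC, TTTCGCGC, TTTCCCGC and TTTGCCGC on both strands, where matches of different spellings can overlap. A match was found in 4.35% of compared promoters, 6 of 16 matched promoters of the E2F and retinoblastoma family, 5 of 16 of origin licensing and 8 of 31 of DNA synthesis. Among the origin licensing genes the 5 with a match had a median difference of -0.17 and the 11 without one of -0.69. Among the DNA synthesis genes it was -1.81 with a match and -0.98 without. In the E2F and retinoblastoma family it was -1.94 with a match (5 of 6 lower) and -0.64 without (2 of 10 lower). The E2F1 promoter (chr20:33686386-33686635, minus strand) is shown because E2F1 is itself lower and carries 2 matches within the last 33 bases before its start.
E2F1: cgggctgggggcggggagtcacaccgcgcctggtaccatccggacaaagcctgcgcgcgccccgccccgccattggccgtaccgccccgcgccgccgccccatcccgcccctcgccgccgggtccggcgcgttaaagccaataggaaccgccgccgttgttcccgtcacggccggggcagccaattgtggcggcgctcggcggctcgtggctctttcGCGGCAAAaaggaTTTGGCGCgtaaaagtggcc

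Genes of mitosis were also lower at 165 minutes, with none of 96 members of 3 lists at least 2-fold higher. Of 40 mitotic regulators, 25 were lower (median -1.29). AURKB, the kinase of the chromosomal passenger complex, stood at 66.7 against 835 FPKM, 12.3-fold lower, and UBE2C, which feeds ubiquitin to the anaphase-promoting complex, at 69.3 against 704 FPKM. TOP2A, which untangles sister DNA, stood at 82.7 against 613 FPKM, CDK1, the mitotic kinase, at 107 against 607 FPKM and FOXM1, an activator of G2 genes, at 121 against 502 FPKM. The cyclins differed in degree. CCNF stood at 40.0 against 223 FPKM, CCNA2 at 177 against 662 FPKM, CCNB1 at 272 against 561 FPKM and CCNB2 at 129.5 against 149 FPKM, the last within 2-fold. PLK1 (131 against 352 FPKM) was lower, AURKA (354 against 665 FPKM) and CDC20 (415 against 526 FPKM) lay within 2-fold, and CKS2 (1589.5 against 1095 FPKM) and WEE1 (1411 against 1024 FPKM) stood above the mixed culture by under 2-fold.

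Of 13 mitotic kinesins, the motors that move chromosomes and spindle poles, 11 were lower (median -1.83), from KIF18B at 56 against 563 FPKM to KIF23 at 135 against 629 FPKM and KIF4A at 46.2 against 174 FPKM. Of 43 kinetochore and checkpoint genes, 29 were lower (median -1.40), with SPC25 of the NDC80 complex at 24 against 303 FPKM and INCENP, the partner of AURKB, at 65.4 against 379.8 FPKM. Among 22 cohesin and condensin genes, 9 were lower (median -0.48). These were led by condensin subunits, NCAPG at 154 against 1325 FPKM and NCAPH at 66.7 against 377 FPKM, and by CDCA5, the cohesion factor sororin, at 67.7 against 447 FPKM. Genes that repair DNA in S and G2 were lower in 26 of 32 (median -1.45). EXO1, a resection nuclease, stood at 51.5 against 394 FPKM and POLQ, the polymerase of end joining, at 49.2 against 302 FPKM.

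The cell cycle homology region (TTTGAA), a motif of genes transcribed in G2, was searched on both strands. It was found in 20 of 32 matched promoters of mitotic regulators (62.5%), 5 of 13 of kinesins (38.5%), 2 of 26 of S and G2 repair genes (7.69%) and 9.03% of all compared promoters. It was also found in 25% of kinetochore promoters and 27.8% of cohesin and condensin promoters, and in 32.1% of replication-dependent histone and 27.3% of liver secreted protein promoters, which are not G2 lists. CCAAT, which often lies near it, was found in 78.1% of mitotic regulator promoters against 35.5%, and in 84.9% of replication-dependent histone promoters. Mitotic regulators with TTTGAA had a median difference of -1.31 (12 of 20 lower) and those without it of -1.12 (7 of 12 lower). TOP2A (chr17:40417897-40418146, minus strand) and PLK1 (chr16:23678639-23678888, plus strand) are shown as lower genes with the motif, and the lower-case letters of both hold CCAAT or its reverse complement (ATTGG) as well.
TOP2A: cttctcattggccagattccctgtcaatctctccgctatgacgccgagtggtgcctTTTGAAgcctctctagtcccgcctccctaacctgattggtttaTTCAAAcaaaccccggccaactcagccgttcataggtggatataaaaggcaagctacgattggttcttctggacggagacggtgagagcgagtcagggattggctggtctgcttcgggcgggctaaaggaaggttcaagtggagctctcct
PLK1: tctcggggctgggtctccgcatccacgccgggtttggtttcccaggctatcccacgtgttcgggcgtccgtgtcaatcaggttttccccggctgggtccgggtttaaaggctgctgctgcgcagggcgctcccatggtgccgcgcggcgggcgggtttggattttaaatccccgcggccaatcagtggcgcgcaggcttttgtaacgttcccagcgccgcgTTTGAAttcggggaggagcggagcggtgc

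**Figure D3:**
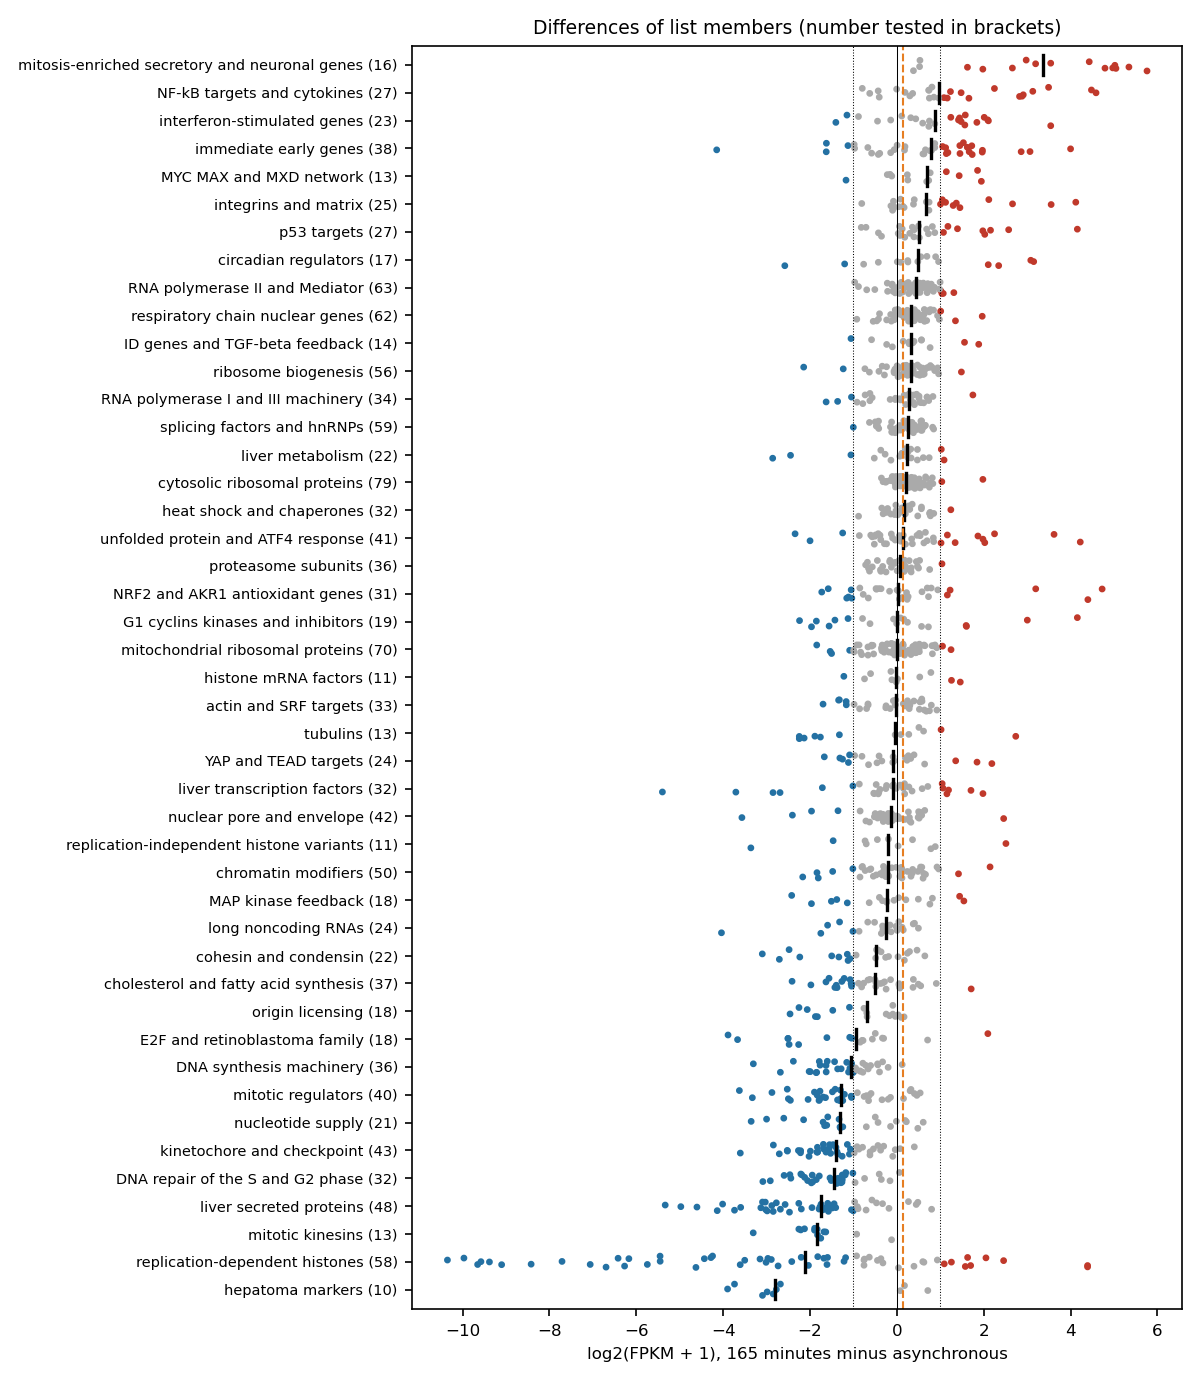
Differences in log2(FPKM + 1), 165 minutes minus asynchronous, for every compared member of each gene list with 10 or more such members, sorted by the list's median (black bar). Red points are at least 2-fold higher, blue points at least 2-fold lower, the dashed line is the median over all genes compared (0.14), and the lists of liver secreted proteins, kinesins and histones lie farthest to the left among those of more than 10 genes.

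The regulators of G1 itself were split. Of 19 compared G1 cyclins, kinases and inhibitors, 4 were higher and 6 lower (median 0.00). CCND1, the cyclin that starts G1 kinase activity, stood at 2623 against 2766 FPKM and its kinase CDK4 at 1163 against 1041 FPKM, both close to the mixed culture, while CDK6 was higher at 461 against 152 FPKM. The cyclins of the G1/S step were lower, CCNE1 at 74.3 against 293 FPKM and CCNE2 at 67 against 199.5 FPKM, as were CDC25A (105 against 383 FPKM), CDK2 (135 against 295 FPKM), SKP2 (502 against 1349 FPKM) and FBXO5 (349 against 1654 FPKM). Of the kinase inhibitors, 2 were higher and none was at least 2-fold lower. CDKN1A (p21) stood at 369 against 19.8 FPKM, 17.8-fold higher, CDKN2B (p15) at 3798 against 1249.6 FPKM, and CDKN1B (p27) at 1131 against 1065 FPKM. CCNG2, a cyclin linked to cell cycle exit, was higher at 274 against 33.3 FPKM.

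Of 27 compared p53 targets, 8 were higher and 0 lower (median 0.50). Besides CDKN1A these were led by inducers of cell death, BBC3 (PUMA) at 222 against 36.4 FPKM, the death receptor TNFRSF10B at 1173 against 262 FPKM and PMAIP1 (NOXA) at 186 against 46.4 FPKM, and by the stress genes SESN2 (487 against 119 FPKM) and PLK2 (2537 against 963 FPKM). Not all went this way: 19 lay within 2-fold. In the MYC network, 4 of 13 were higher and 1 lower (median 0.69). MYC, which drives growth genes, stood at 4341 against 1969.6 FPKM and its partner MAX at 669 against 184 FPKM. The antagonists MXD4 (817 against 211 FPKM) and MXD1 (1818 against 672 FPKM) were higher too, and MXD3 was lower (52.8 against 120.0 FPKM).

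Immediate early genes, which answer growth signals without new protein, were higher in 16 of 38 and lower in 4 (median 0.78). Close relatives stood on opposite sides. FOS (455 against 993 FPKM) was lower, FOSB (1967 against 590.0 FPKM, named after its value was seen) was higher and JUN (4755 against 5246 FPKM) was level. EGR1 was lower at 669 against 2067 FPKM and EGR2 higher at 299 against 17.8 FPKM, 16-fold. KLF2 was lower at 56.5 against 1017 FPKM, 17.7-fold, and KLF4 higher at 2449.6 against 292 FPKM, 8.38-fold. NR4A3, an orphan nuclear receptor, was higher at 142 against 18.7 FPKM, and so were ZFP36, which destabilises AU-rich mRNA (5895 against 1503 FPKM), and IER5 (1313 against 335 FPKM).

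Feedback genes of MAP kinase signalling showed no common direction, with 2 of 18 higher, 5 lower and a median of -0.23. The ETS factors ETV4 (30.5 against 168 FPKM) and ETV5 (82.7 against 326 FPKM) and the kinase phosphatase DUSP16 (168 against 481 FPKM) were lower, and DUSP5 was higher (2439.6 against 836 FPKM). Targets of YAP and TEAD were similarly divided, 3 of 24 higher and 5 lower. AXL, a receptor kinase, stood at 93.1 against 19.6 FPKM and NUAK2, a kinase, at 1774 against 492 FPKM, while AMOTL2, an inhibitor of YAP, stood at 1166 against 2896 FPKM. Of the 14 ID and TGF-beta feedback genes, 2 were higher, among them TGFB1 (259 against 69.3 FPKM), and SKI was lower (255 against 531 FPKM). On the MAP kinase, YAP and ID lists 11.1%, 12.5% and 14.3% were higher, near the 12.9% over all genes compared. Lower were 27.8%, 20.8% and 7.14%, against 11.2% over all genes compared.

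Of 27 compared NF-kB targets and cytokines, 13 were higher and 0 lower (median 0.97). BIRC3, an inhibitor of cell death, stood at 483 against 19.2 FPKM, 24-fold higher. TNF stood at 127 against 4.74 FPKM, CSF1, a macrophage growth factor, at 969 against 109.8 FPKM, IL11 at 259 against 34.2 FPKM, and NFKB2, a subunit of NF-kB itself, at 469 against 61.5 FPKM. Of the 27, 1 (TNF) reached 10 FPKM at 165 minutes alone and 1 in asynchronous culture alone. The degenerate NF-kB consensus, searched on both strands, was found in 11 of 23 matched promoters of the list and in 5.67% of all compared promoters. Of the 11 genes with a match 3 were higher, and of the 12 without a match 7 were higher. Interferon-stimulated genes were higher in 11 of 23 and lower in 2 (median 0.87), where 6 reached 10 FPKM at 165 minutes alone, with ISG15, a ubiquitin-like protein, at 529.6 against 44.5 FPKM and IRF1, a transcription factor of this response, at 660.2 against 163 FPKM.

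Genes answering to the aryl hydrocarbon receptor (AHR) and to the circadian clock held single large differences. AHR itself was within 2-fold in a list where 3 of 8 were higher and 0 lower. CYP1B1, a cytochrome P450 that AHR induces, stood at 1252 against 29.8 FPKM, 40.6-fold higher, CYP1A1 at 3493 against 819.6 FPKM and TIPARP, a repressor of AHR, at 2892 against 981 FPKM. Of 17 clock genes, 4 were higher and 2 lower. Of these 17, 3 reached 10 FPKM at 165 minutes alone. The higher ones were BHLHE41 (540.2 against 59.9 FPKM), BHLHE40 (5911 against 1373 FPKM), NR1D1 (384 against 44.4 FPKM) and PER1 (419 against 81.8 FPKM). The lower ones were HLF at 11.1 against 71.5 FPKM and NFIL3, a repressor of transcription, at 218 against 502 FPKM.

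Genes for proteins that hepatocytes secrete were lower at 165 minutes in 36 of 48 compared members, with 0 higher (median -1.74). APOB, the protein of very low density lipoprotein, stood at 300.2 against 4016 FPKM, 13.3-fold lower. AFP, the fetal serum protein, stood at 579 against 3964 FPKM and ALB, serum albumin, at 357 against 2295 FPKM. Both were at their highest release value at 300 minutes, 1078 FPKM for AFP and 662 FPKM for ALB. The list was divided in this, with the highest release value at 300 minutes in 20 of the 48, at 40 minutes in 14 and at 0 minutes in 8. The members furthest below the mixed culture were ITIH2 (16.7 against 713 FPKM), the acute phase genes ORM2 (9.79 against 338 FPKM) and ORM1 (26 against 434 FPKM), AHSG (29.8 against 747 FPKM) and HP, haptoglobin (1.49 against 42.8 FPKM). Of the 48, 6 reached 10 FPKM in asynchronous culture alone. Both groups had all 10 hepatoma markers above 0 FPKM, the lowest being GPC3 at 29.5 FPKM at 165 minutes, where it had 453 FPKM in asynchronous culture. Of the 10 markers 7 were lower, and summed over all of them the level was 5220.5 against 15549 FPKM.

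The liver transcription factors were divided: 6 of 32 were higher and 6 lower (median -0.09). CEBPA, which drives many secreted protein genes, stood at 39.4 against 1702 FPKM, 42.2-fold lower, and its relative CEBPB at 1548 against 391 FPKM, 3.95-fold higher. ONECUT1 (209 against 1351 FPKM), FOXA1 (504 against 1656 FPKM), and the bile acid receptor NR1H4 (10.9 against 154 FPKM) with its target NR0B2 (12.2 against 94.1 FPKM) were lower, HNF4G being the sixth. GATA6 was higher (1647 against 504 FPKM), as were CREB3L3, NR1I2, TBX3 and CEBPD by 1.19, 1.15, 1.06 and 1.04 on the log2 scale. HNF4A (1553 against 947 FPKM) and FOXA2 (1410.0 against 1336 FPKM), factors used to define hepatocytes, lay within 2-fold.

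The motif GTTAAT (both strands), known from liver promoters, was found in 6 of 33 matched promoters of secreted protein genes (18.2%) and in 3.79% of all compared promoters. The share was as high in lists that are not of the liver, at 10 of 53 replication-dependent histone promoters (18.9%) and 2 of 11 of the MYC network (18.2%). All 6 of these genes (AFP, ALB, APOH, F2, FGA and FGB) were lower, with a median difference of -2.58, against 18 of 27 and a median of -1.59 without a match. ALB (chr4:73404037-73404286) and its neighbour AFP (chr4:73435971-73436220), both on the plus strand, are shown with the motif in capitals, 61 and 132 bases before their starts.
ALB: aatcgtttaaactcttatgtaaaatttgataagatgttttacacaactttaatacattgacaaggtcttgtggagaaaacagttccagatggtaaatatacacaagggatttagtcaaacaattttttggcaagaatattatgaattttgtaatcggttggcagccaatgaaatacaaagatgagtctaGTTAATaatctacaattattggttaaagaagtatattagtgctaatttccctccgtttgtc
AFP: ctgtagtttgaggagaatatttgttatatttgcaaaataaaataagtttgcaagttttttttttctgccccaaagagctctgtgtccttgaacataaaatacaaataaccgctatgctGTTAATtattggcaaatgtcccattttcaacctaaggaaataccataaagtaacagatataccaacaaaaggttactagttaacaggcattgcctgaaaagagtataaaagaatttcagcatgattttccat

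Of 40 enzymes of liver metabolism, 18 were under 10 FPKM in both columns, and of the 22 compared 2 were higher and 3 lower. This share past 2-fold, 22.7%, was near the 24.1% over all genes compared. HGD, of tyrosine breakdown, stood at 646 against 1345 FPKM, while ALDH1A1, which makes retinoic acid, stood at 2440.1 against 1199.6 FPKM. Genes of cholesterol and fatty acid synthesis were lower in 13 of 37 and higher in 1 (median -0.51). The desaturases FADS2 (73.7 against 397 FPKM) and FADS1 (127 against 505 FPKM) were lower. INSIG2, which restrains the pathway, was higher at 276 against 83.5 FPKM.

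On the list of adhesion genes, members were higher or level. Of 25 compared integrin and matrix genes, 10 were higher and 0 lower (median 0.68), and 5 of the 25 reached 10 FPKM at 165 minutes alone. CD44, the hyaluronan receptor, stood at 421 against 23.3 FPKM, 17.4-fold higher, PLAU, the urokinase protease, at 80.8 against 5.97 FPKM, and the integrin subunits ITGA5 at 286 against 44.3 FPKM and ITGA2 at 559 against 128 FPKM. Beyond the list, of all 14 compared genes with names starting in ITGA, 4 were higher and 1 lower (median 0.14). Of these 14, 4 reached 10 FPKM at 165 minutes alone. Replating is part of the release and not of the asynchronous culture, and its part in these values cannot be told apart from that of the phase. Of 12 stroma and endothelium markers, 5 were compared, 2 of them because they reached 10 FPKM at 165 minutes alone (COL1A1 and COL1A2). Without a filter the median of the 12 was 0.13, against 2.44 for the 5. Higher values at 165 minutes were seen for LUM (399.6 against 80.9 FPKM), PDGFRA (277 against 38.3 FPKM), COL1A2 (36 against 5.82 FPKM) and COL1A1 (34.7 against 3 FPKM). PECAM1, the other compared marker, went the other way within 2-fold, at 21.3 against 35.9 FPKM. The 12 summed to 784 against 187 FPKM, none was at 0 in either column, and DCN, COL3A1, PDGFRB, VWF, CDH5, KDR and ACTA2 stayed under 10 FPKM in both. The 12 blood markers summed to 220.3 against 432 FPKM, with HBB and PPBP at 0 in both, and LYZ, lysozyme, lower at 110.2 against 364 FPKM. The part of other cells in the adhesion values was not tested.

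The cytoskeleton differed by family. Of 13 tubulin genes, 6 were lower and 2 higher (median -0.04). TUBB stood at 245 against 1166 FPKM, TUBA1A at 19.5 against 96.4 FPKM, TUBB4B at 202 against 686 FPKM and TUBG1, the gamma-tubulin that seeds microtubules, at 52.7 against 235 FPKM. TUBB3 went the other way, at 302 against 44.4 FPKM. Nocodazole binds tubulin, and its part in these values was not tested. Actin and SRF target genes were lower in 5 of 33 and higher in 0 (median -0.02), with FHL2 at 209 against 681 FPKM, ACTG1 at 235 against 597 FPKM and VCL (vinculin) at 329.8 against 827 FPKM, while ACTB (237 against 470.2 FPKM) was just inside 2-fold. Of 42 nuclear pore and envelope genes 1 was higher and 4 lower, and the lamins stood apart: LMNA was higher (755 against 136 FPKM) and LMNB1 lower (56.6 against 304 FPKM), as was the pore protein NUP210 (15.6 against 195 FPKM).

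Stress pathways held a few genes far above the mixed culture and medians near 0. In the list of NRF2 and AKR1 antioxidant genes, 5 of 31 were higher and 6 lower, and the median of 0.03 changed sign under every other scaling tried. The 5 include TXNIP, ARRDC3 and ARRDC4, arrestin genes placed on this list beside the antioxidant genes. TXNIP, an arrestin that binds thioredoxin and curbs glucose uptake, stood at 1620.2 against 60.2 FPKM, 26.5-fold higher, and its relative ARRDC3 at 3087 against 335 FPKM. GCLM, of glutathione synthesis, was lower (308 against 924 FPKM), and AKR1C1 was higher (1336 against 570.2 FPKM). Of 41 genes of the unfolded protein and ATF4 response, 9 were higher and 3 lower. STC2 (1098 against 57.8 FPKM), DDIT4, an inhibitor of mTORC1 (1171 against 94.4 FPKM), and VEGFA (1750.0 against 367 FPKM) were higher, and the endoplasmic reticulum chaperones PDIA4 (47.3 against 244 FPKM) and SDF2L1 (38.1 against 155 FPKM) were lower. Of 32 heat shock and chaperone genes 31 lay within 2-fold, and the collagen chaperone SERPINH1 was higher (245 against 103 FPKM).

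Machines that every cell uses lay close to the mixed culture. Within 2-fold were 77 of 79 cytosolic ribosomal protein genes, 64 of 70 mitochondrial ones, 53 of 56 ribosome biogenesis genes, 58 of 59 splicing factors, 59 of 62 respiratory chain genes, 35 of 36 proteasome subunits and 59 of 63 genes of RNA polymerase II and Mediator. Of the last list 4 were higher, led by POLR2E (727 against 292 FPKM), and its median was 0.43. The shares of these lists past 2-fold, from 1.69% to 8.57%, were all under the background of 24.1% in both directions together. FAU, a ribosomal protein gene, was 1 of the 2 cytosolic ones that were higher, at 234 against 58.4 FPKM, and MRPS34 was among the 4 lower mitochondrial ones, at 190.3 against 686 FPKM. Chromatin modifiers were within 2-fold in 43 of 50, with EZH2, the Polycomb methyltransferase, lower (112 against 504 FPKM) and KDM6B, which removes its mark, higher (1096 against 247 FPKM).

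By class of RNA, 12.2% of 13670 protein-coding genes were higher and 10.5% lower, and long noncoding genes were close to this with 14.3% and 10.7% of 1674. Small nuclear RNA genes stood apart, with 20 of 36 lower and 3 higher (median -1.42). The minor spliceosome RNAs RNU4ATAC (55.9 against 288 FPKM), RNU12 (57.1 against 193 FPKM) and RNU11 (239 against 636 FPKM) were lower. RNU6ATAC, of the same class, was higher at 14.9 against 3.47 FPKM, but reached 10 FPKM at 165 minutes alone. These RNAs are short, and low values of short genes rest on few reads. Of the 7 compared members of the list of vault, 7SL, 7SK and minor spliceosome RNAs, 2 were higher and 3 lower. Among microRNA genes 22.1% were higher and 23.9% lower, but 74 of 893 were listed at 0 at 165 minutes and 59 in asynchronous culture, and their hairpins are short. Of 24 compared members of the list of long noncoding RNAs, 5 were lower and 0 higher. HULC, a liver cancer transcript, stood at 81.7 against 1356 FPKM and MIR17HG, host of a microRNA cluster that MYC and E2F induce, at 225 against 758 FPKM, while MALAT1 stood at 3128 against 2408 FPKM.

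The difference also varied with the length of the gene. Protein-coding genes of 10 to 20 kb had a median of 0.29, with 15.2% higher and 7.36% lower. The median was 0.07 at 50 to 100 kb, -0.34 at 200 to 500 kb and -0.83 over 500 kb, where 62 of 152 genes (40.8%) were lower and 2 (1.32%) higher. At 80 minutes the longest genes stood lower still against the same asynchronous column, at a median of -1.21, and at 300 minutes at -0.64. Genes of up to 2 kb were more often apart in both directions, 21.4% higher and 29.7% lower, and without the replication-dependent histones 22.8% and 23.7%. PLCB1, a phospholipase gene of 753 kb, stood at 256 against 529 FPKM, and SHANK2 (785 kb) at 101 against 462 FPKM, both named after their values were seen. Lengths are spans in RefSeq on GRCh38.p14, and the labels do not say if the authors divided by spliced or whole length.

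**Figure D4:**
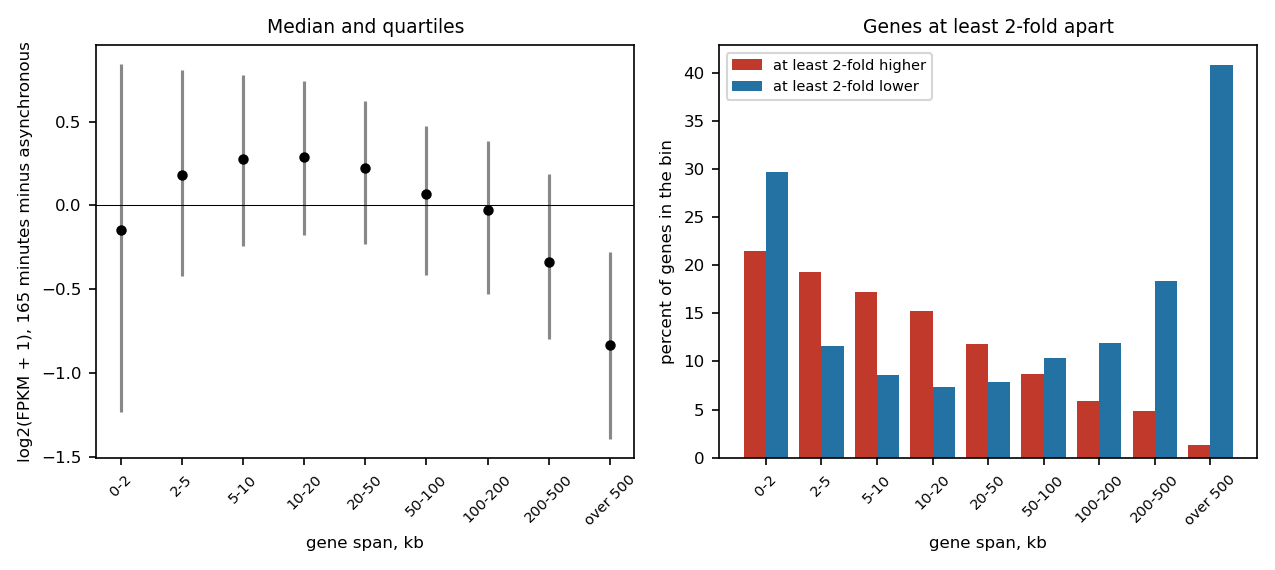
Differences of protein-coding genes in 9 bins of gene span: on the left the median (point) and quartiles (line) of log2(FPKM + 1), 165 minutes minus asynchronous, on the right the percent of genes at least 2-fold higher (red) and lower (blue). The median goes from 0.29 at 10 to 20 kb to -0.83 over 500 kb, and the share of lower genes from 7.36% to 40.8%.

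Ranked over the 9005 protein-coding and long noncoding genes whose higher column reached 100 FPKM and whose lower column reached 5 FPKM, the 15 lowest held 7 replication-dependent histones, led by H1-5, and 4 genes of liver function on the lists above (CEBPA, ITIH2, ORM2 and AHSG). The other 4 were ATP2B2, a calcium pump (5.01 against 299 FPKM), MT2A, a metal-binding metallothionein (5.44 against 231 FPKM), SLC30A10, a manganese exporter (25.8 against 826 FPKM), and FAM111B, a protease (55.2 against 1171 FPKM). The 15 highest were S100A6, CYP1B1, PTHLH, COL7A1, DLX2, ACHE, TXNIP, BIRC3, GEM, F2RL1, STC2, ZIC2, SIX4, CDKN1A and CD44. All 15 already stood above the mixed culture at 0 minutes of release, where COL7A1 had 87.4 FPKM and SIX4 184 FPKM. S100A6, a calcium-binding protein, stood at 737 against 12.6 FPKM, 54.2-fold higher, PTHLH, a parathyroid hormone-related hormone, at 304 against 8.4 FPKM, and COL7A1, the collagen of anchoring fibrils, at 263 against 7.34 FPKM. DLX2 (730.4 against 22.3 FPKM), ZIC2 (221 against 10.9 FPKM) and SIX4 (765 against 40.3 FPKM) encode developmental transcription factors, and F2RL1 (1235 against 57 FPKM) a protease-activated receptor. S100A6, CYP1B1, PTHLH, DLX2, ACHE and GEM also stand on a list of 23 genes drawn from these data as high in the mitotic block, of which 13 of 16 compared were higher. Of the 16, 6 reached 10 FPKM at 165 minutes alone, and the count of 13 is not independent evidence.

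The lists stood at different points of the release. The comparisons of 80, 165 and 300 minutes share the asynchronous column, so their medians are given side by side and not tested. For replication-dependent histones the median was -2.12 at 165 and -3.66 at 300 minutes and nearer to the mixed culture at 80 minutes. For mitotic regulators it was -0.33 at 80, -1.29 at 165 and -1.49 at 300 minutes. Liver secreted proteins had -2.07, -1.74 and -1.51, DNA synthesis genes -0.93, -1.06 and -0.57. Immediate early genes had 1.26, 0.78 and -0.51, so 165 minutes lay between a time when they stood above the mixed culture and one when they stood under it. NF-kB targets had 1.23, 0.97 and 0.32. Over all genes compared the medians were 0.20, 0.14 and 0.10.

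The columns at 105 and 300 minutes, on either side of 165 minutes, were also set against each other. Of all genes compared, 7296 (42.5%) were higher at 300 than at 105 minutes. The share was 28 of 32 for S and G2 repair genes, 30 of 36 for DNA synthesis, 17 of 21 for nucleotide supply, 14 of 18 for origin licensing and 32 of 48 for liver secreted proteins. Mitotic regulators differed from the replication genes here, with 5 of 40 higher at 300 than at 105 minutes, and so did replication-dependent histones, with 4 of 58. E2F1 stood at 189 FPKM at 105, 154 at 165 and 610.1 at 300 minutes, against 879 FPKM in asynchronous culture, and AURKB at 130.4, 66.7 and 103 against 835 FPKM. Immediate early genes were higher at 300 minutes in 2 of 38 and NF-kB targets in 1 of 27.

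**Figure D5:**
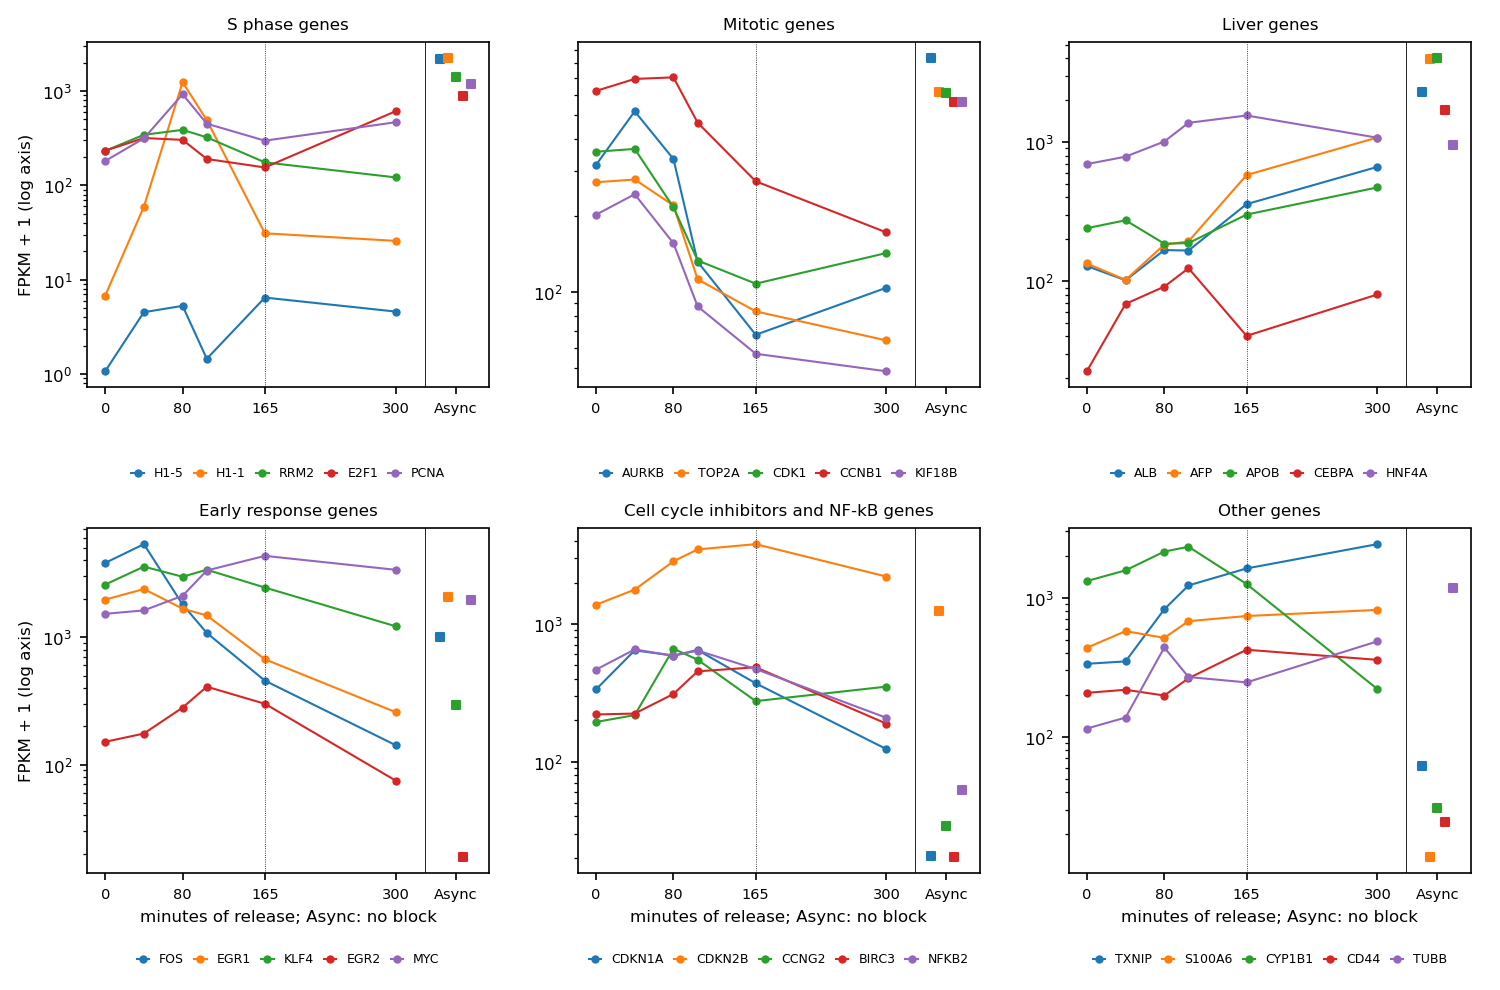
FPKM + 1 (log axis) of 30 genes at 0, 40, 80, 105, 165 and 300 minutes of release (lines, 165 marked by a dotted line) and in asynchronous culture (squares, right of the vertical line, spread sideways for legibility). Mitotic genes stand under their squares at 165 minutes, ALB, AFP and APOB stand between their early values and their squares, and CDKN1A, BIRC3, TXNIP and CD44 stand above theirs throughout.

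At the edge of the filter, 368 genes had their higher value between 10 and 11 FPKM, with a median difference of 0.20, and 357 genes just outside, between 9 and 10 FPKM, had 0.18. Past 2-fold upward were 9.78% of the genes inside and 11.5% of those outside, and downward 3.53% and 2.80%. At 165 minutes 86 compared genes were listed at 0 and in asynchronous culture 87, most of them microRNA genes, and no fold is given for these.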

How the data were processed

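EU-labelled RNA was sequenced, and per the file headers and labels the authors deposited 1 FPKM value per RefSeq transcript for each of 7 groups, with 3 libraries each at 165 minutes and in asynchronous culture. Tools listed in the submitters' processing notes are TopHat, Bowtie2 2.2.9, bcl2fastq and bedtools, with the build hg19. How libraries were pooled, which lengths and read totals were used, strand use and background subtraction are not stated in the labels. Depth is therefore known only as the relative steps of low values.

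Of 48205 transcripts, 47127 (97.8%) matched the RefSeq gene table of GRCh38.p14, used for names, classes and gene spans. Transcripts of a gene were averaged over distinct sets of values. The difference was log2(FPKM + 1) at 165 minutes minus asynchronous, which understates differences of low genes, in genes with 10 FPKM or more in either column. A difference of 2-fold was counted. With 1 pooled column per group there is no test and no error for any value. The counting was checked on simulated data. Analyses used Python 3.11.15 and pandas 2.3.3.

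Genes named are the 15 highest and 15 lowest (100 FPKM or more in the higher and 5 FPKM or more in the lower column), up to 6 of each of 49 lists with the largest differences, all members of 6 cell cycle, histone and liver factor lists, and 14 marker genes. The members and lists were chosen with earlier results of these data known. Alternatives covered the pseudocount, filter, scaling, collapse of transcripts, gene classes and threshold.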

Additional observations from a re-analysis of the deposited data

How the results depend on the processing

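No paired analysis was possible because the table holds 1 pooled column per group, and for the same reason no replicate could be left out. Against 2205 genes at least 2-fold higher and 1921 genes at least 2-fold lower, a threshold of 1.5-fold gave 4426 and 3359, and a threshold of 3-fold 940 and 900. Under the 14 other alternatives the counts ranged from 1609 to 2714 and from 1485 to 2418, each within 1.5 times the reported count. Of 1274 counts of higher or lower list members, all at the 2-fold threshold, 1192 were equal to the reported count or within 1.5 times it and 82 moved further. Of 637 list medians 627 stayed close to the reported value and no median past 2-fold as reported took the opposite direction. The 10 that moved did so with the filter. The list drawn from genes high in the mitotic block had a median of 2.32 without a filter, 2.66 at 1 FPKM in either column, 2.76 at 10 FPKM in both and 4.43 at 50 FPKM in either, against 3.37. The stroma and endothelium markers had 0.13 without a filter and at 1 FPKM, against 2.44. The replication-dependent histones had -1.20 at 10 FPKM in both columns, and at 50 FPKM in either the interferon-stimulated genes had 1.46, the vault and minor spliceosome RNAs -1.41 and the blood markers -1.72, against 0.13 as reported. The medians of the unfolded protein, heat shock, NRF2, ribosomal protein, proteasome and blood marker lists, all near 0, changed sign with the scaling. Of 3955 values of named genes, 3912 stayed close, and no gene at least 2-fold apart as reported took the opposite direction. Changes of sign in smaller differences of named genes were not counted. Depth limits short genes at low FPKM most, and no value here measures the spread between libraries.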

Other observations

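Some gene families, a few of whose members stand on the lists above (CDCA and S100A genes), held several members far from the mixed culture. They were picked after their values were seen, so their counts are descriptions. The 27 genes of the USP17L family, deubiquitinases encoded in tandem copies, ranged from 2.92 to 77.1 FPKM at 165 minutes and from 0 to 3.44 FPKM in asynchronous culture, where 14 were listed at 0. The 24 compared passed the filter at 165 minutes alone, so a count of higher members says nothing more, and the 27 held 22 distinct sets of values. All 4 KLRC genes, known as receptors of natural killer cells, were higher, and KLRC2 stood at 432 against 30.3 FPKM. Of these 4, 1 passed the filter at 165 minutes alone. Of 10 compared S100A genes, which encode calcium-binding proteins, 6 were higher and 1 lower, with 3 past the filter at 165 minutes alone. Calpain protease genes were higher in 7 of 11 and HOX genes, which pattern the body axis, in 6 of 18. Past the filter at 165 minutes alone were 1 of these calpain and 3 of these HOX genes, and the table held 36 HOX genes.

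Zinc finger genes named ZNF, mostly encoding repressors, were higher in 88 of 462 (19.05%) and lower in 19 (4.11%), with a median difference of 0.44 on the log2 scale, against 12.9% and 11.2% over all genes compared. On the opposite side, all 7 genes of the CDCA series, named for their link to cell division, were lower with a median of -2.08. Bitter taste receptor genes (TAS2R) were lower in 9 of 17 with 0 higher, and metallothionein genes, which bind zinc and copper, in 4 of 7 with 0 higher. Of these 7 metallothionein genes, 2 passed the filter in asynchronous culture alone. Protocadherin genes mostly lay within 2-fold, with 1 of 44 higher and 3 lower (median -0.39).

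The AP-1 site TGAGTCA, searched on both strands of the 250 bases before the start, was found in 5.21% of the promoters of genes at least 2-fold higher, 2.40% of those within 2-fold and 2.44% of those lower. A match in this window is a description of letters and not a bound site.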
